A study of Mus musculus with 8 samples.

Results

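The respiratory chain genes described here were the rows of the count table whose symbols mark subunits of complexes I to V and cytochrome c (Nduf without Ndufaf, Sdha to Sdhd, Uqcr, Cyc1, Cycs, Cox4 to Cox8 and Atp5). The rule found 80 genes of 10970 in the table. It placed 35 in complex I, 4 in complex II, 9 in complex III, 14 in complex IV, 15 in complex V and 1, Cycs, as cytochrome c. The remaining 2, Atp5s and Atp5sl, matched by name but are not structural subunits and stayed out of every sum. Counts of single chain genes did not leave them out. Ndufa4 was counted in complex IV, where the protein is now placed.

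Single mouse neutrophils were picked by mouth pipette after EasySep enrichment and read out with SCRB-seq, which works on plates and counts the 3′ ends of mRNA by unique molecular identifiers (UMIs). The 4 groups were PBS-primed and LPS-primed peripheral blood (PB) neutrophils and PBS-primed and LPS-primed bone marrow (BM) neutrophils, from wild-type C57BL/6J mice that received an intraperitoneal injection of PBS or of LPS at 0.5 mg/kg, the bacterial endotoxin. The labels set PBS at 0 h and LPS at 4 h. Each group had 2 labelled samples with 711 cells in all. A further 710 cells on 9 plates carried a group but no sample in their names. These cells are given per plate and per group without an error. Their names also hold b6, and they are called batch 6 here. Whether b6 stands for a batch is not given in the labels.

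The respiratory chain passes electrons from NADH (complex I) and succinate (complex II) through ubiquinone to complex III, then by cytochrome c to complex IV, which reduces oxygen. Complexes I, III and IV pump protons across the inner mitochondrial membrane, and complex V, the ATP synthase, uses that gradient to make ATP. Mature neutrophils are known for relying mainly on glycolysis and for holding few mitochondria, and most chain subunits are made from nuclear genes. The subunits encoded by mitochondrial DNA were not analysed here, since the table held 0 rows of that genome.

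Many chain genes share short letters in their promoters that are known binding motifs of NRF1, ETS factors and YY1, and 1 stretch per complex is shown for NRF1 so that its letters can be seen in place. The NRF1 letters are in capitals, each sequence is the strand of the gene, 5′ to 3′, from RefSeq on GRCm38.p6, and every stretch has 6 bases on either side.
Ndufa8 (complex I, chr2:36049353-36049374, minus strand): agcagtGCGCTTGCGCgtcgct
Sdha (complex II, chr13:74350323-74350344, minus strand): tacaggGCGCAGGCGCaccacc
Uqcrc1 (complex III, chr9:108936672-108936693, plus strand): cgctctGCGCATGCGCagcgcg
Cox6a1 (complex IV, chr5:115349105-115349126, minus strand): aacgggGCGCATGCGCgctctc
Atp5c1 (complex V, chr2:10080434-10080455, minus strand): gctcccGCGCACGCGCactgag
In promoters of 300 bases (250 before to 50 after the start), GCGCANGCGC was found on either strand in 16 of 68 matched chain genes (23.5%), against 5.19% of 27025 RefSeq genes. The ETS letters CCGGAAG were present in 16 chain genes (23.5%, against 9.93%) and the YY1 letters AAGATGGCG in 8 (11.8%, against 1.64%), and no match of one motif overlapped a match of another. These are matches of letters, and binding was not measured. Of the 8 genes with the YY1 letters, 1 was Atp5sl.

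The 8 samples held 3240559 to 8361677 UMIs from 83 to 92 cells each, with medians of 32295 to 76133 UMIs per cell. The 10 neutrophil markers summed to 122980 to 183860 CPM (UMI counts scaled to a library of 1000000 UMIs) in PBS-primed PB plates. They summed to 276950 to 355320 in LPS-primed PB, 300700 to 347970 in LPS-primed BM and 331970 to 381280 in PBS-primed BM plates. Ly6g was at 9.94 to 172.5 in PBS-primed PB plates and 264 to 1062 elsewhere, while Csf3r was at 4970 to 7045 and 692 to 2829. S100a8 was the most abundant gene on all 17 plates. Platelet and lymphocyte markers were highest in PBS-primed PB neutrophils. The 6 monocyte and macrophage markers summed to 222 to 686 CPM there, 852 to 1468 in LPS-primed PB and 639 to 1145 in marrow plates. Of the 6, only Ly6c2 was higher in LPS-primed PB plates without overlap, at 640 to 1370 against 84.8 to 193. Csf1r was at 15.8 to 174 against 67.6 to 293 and Adgre1 at 27.5 to 81.9 against 29.0 to 104. Ccr2, F13a1 and Cx3cr1 were at 0 in LPS-primed PB plates and reached 87.4, 63.1 and 14.2 in PBS-primed PB plates. The 4 platelet markers summed to 288 to 2718 CPM in PBS-primed PB plates, to 1.41 to 124 in LPS-primed PB plates and at most 3.18 in marrow plates. The 5 T and NK cell markers summed to 80.7 to 384 in PBS-primed PB plates and to at most 43.1 elsewhere, and the 4 B cell markers of the table to 80.1 to 202 in PBS-primed PB plates and to at most 96.3 elsewhere. Hepatocyte transcripts (Alb, Apoa1, Apoa2, Ttr and Mup3) were in 100% of the cells of all 4 labelled PB samples, at sums of 828 to 2248 CPM, and at most 1.08 in the PB plates of batch 6. The 4 secondary granule markers (Camp, Ltf, Ngp and Chil3, genes of late marrow stages) separated the PB groups, with 104 to 994 in PBS-primed and 14437 to 42544 in LPS-primed PB plates and 43211 to 72850 in marrow plates. The part of these cells, and of stage, in the results that follow was not tested except where a value without marked cells is given. Nothing in the labels says whether the 2 samples of a group came from separate mice, so p-values measure the spread between samples, which may be technical.

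Whether the chain differed between blood and marrow depended on how the libraries were scaled. As a share of the library total, the chain sums (in CPM) of the 2 samples per group were 11782 and 12217 in PBS-primed PB, 5847 and 5896 in LPS-primed PB, 8307 and 8899 in LPS-primed BM and 8344 and 9196 in PBS-primed BM. On that scale PBS-primed PB was 1.37-fold PBS-primed BM, and LPS-primed PB was 0.683-fold LPS-primed BM and 0.489-fold PBS-primed PB, with no overlap between the samples of any of these pairs. The log2 differences were 0.45 (SD 0.07), -0.55 (SD 0.05) and -1.03 (SD 0.03), where SD is the pooled SD of the 2 samples per group. For LPS in marrow it was -0.03 (SD 0.09), within the spread of the samples.

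After TMM scaling, which corrects for a few abundant genes taking a larger part of some libraries, the same sums came close together. They were 8816 ± 98.7 (SD, n = 2) CPM in PBS-primed PB, 8157 ± 476 in LPS-primed PB, 7986 ± 518 in LPS-primed BM and 9276 ± 861 in PBS-primed BM. The log2 differences became -0.07 (SD 0.10) for PBS-primed PB against BM, 0.03 (SD 0.09) for LPS-primed PB against BM, and -0.11 (SD 0.06) for LPS-primed against PBS-primed PB. For LPS in marrow it was -0.21 (SD 0.12). For the chain sum, the samples of blood and marrow overlapped in both comparisons of PB with BM. LPS-primed samples lay below the PBS-primed ones in each tissue. By complex, LPS-primed PB against BM had TMM log2 differences of -0.26 (SD 0.11) for I and -0.31 (SD 0.05) for III. Those of II and IV were 0.44 (SD 0.24) and 0.34 (SD 0.05), and none of these overlapped. In batch 6 with TMM, I, III, II and IV were at -0.11, -0.48, -0.23 and 0.11. For PBS-primed PB against BM only complex V did not overlap, at -0.20 (SD 0.03), and in batch 6 it was -0.41. The TMM factors that moved the values were 1.35 and 1.37 in PBS-primed PB, 0.748 and 0.694 in LPS-primed PB, 1.09 and 1.07 in LPS-primed BM and 0.963 and 0.930 in PBS-primed BM. The 10 most abundant genes of a sample took 25.3% and 26.4% of the UMIs in PBS-primed PB, 36.6% and 38.8% in LPS-primed PB, 38.5% and 38.8% in LPS-primed BM and 41.8% and 45.3% in PBS-primed BM. The factors did not rank by these shares, since the lowest factors were in LPS-primed PB and the highest shares in PBS-primed BM. What set the factors was not tested. The table held 0 spike-in rows, so a smaller amount of chain mRNA per cell and a larger amount of other mRNA cannot be told apart.

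**Figure D1:**
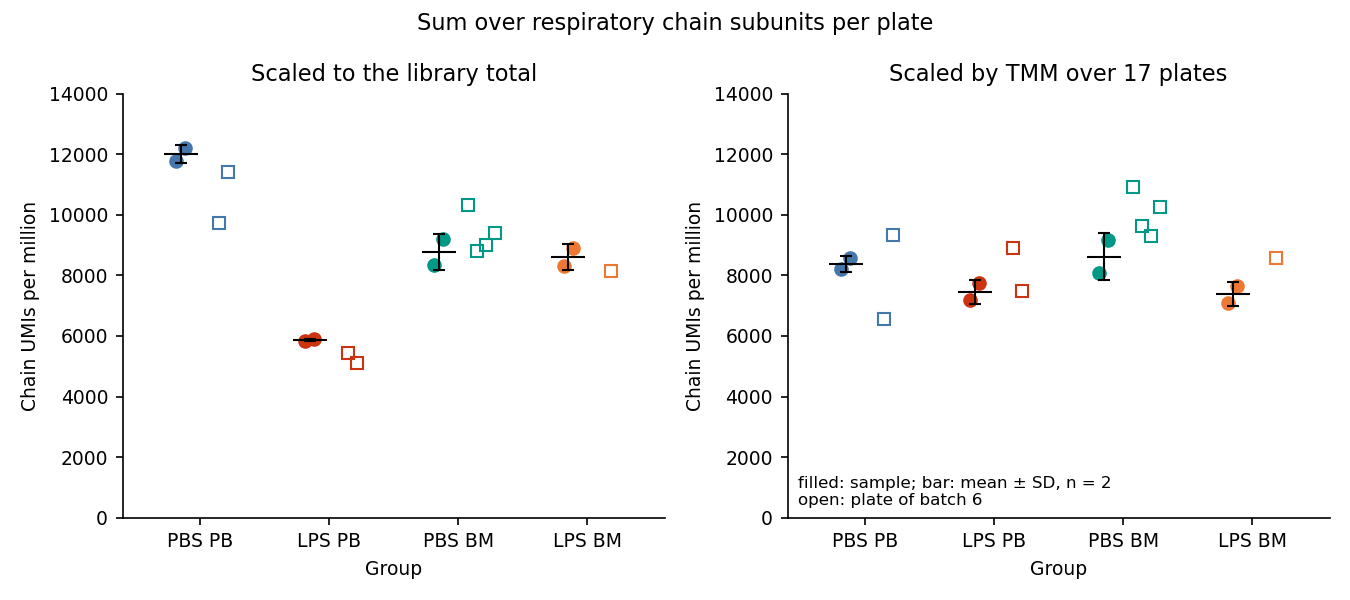
Sum of chain CPM (vertical axis, from 0) in each group, scaled to the library total (left) or by TMM over all 17 plates (right). Filled points are labelled samples with mean ± SD (n = 2) and open squares are plates of batch 6, and the low values of LPS-primed PB at 5103 to 5896 in the left panel lie inside the range of the other groups in the right panel.

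The batch 6 plates gave the same order for LPS in blood and not for resting blood against marrow. On the library scale, the 2 PBS-primed PB plates were at 9722 and 11417 chain CPM and the 4 PBS-primed BM plates at 8814 to 10322, so these groups overlapped. The 2 LPS-primed PB plates were at 5451 and 5103 and the single LPS-primed BM plate at 8157. Pooled by group, the log2 differences on the library scale were 0.18 for PBS-primed PB against BM, -0.62 for LPS-primed PB against BM and -1.01 for LPS-primed against PBS-primed PB. With TMM over all plates they were -0.34, -0.06 and 0.06.

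The share of a cell's UMIs that came from the chain showed the library-scale order in single cells. The median share was 1.09% and 1.12% in PBS-primed PB, 0.55% and 0.58% in LPS-primed PB, 0.713% and 0.783% in LPS-primed BM and 0.852% and 0.744% in PBS-primed BM. Every cell of the 17 plates had at least 1 chain UMI, and a cell held a median of 23 to 37 chain genes in the 8 samples. The 2 cells with most chain UMIs held 10.4% to 17.1% of a sample's sum. After leaving out cells in which platelet, lymphocyte or erythroid markers reached 0.1% of UMIs, an alternative chosen after seeing the data, the PBS-primed PB samples stood at 10799 and 11277 and the LPS-primed PB samples at 5672 and 5823 chain CPM on the library scale. That step removed 17 and 13 cells from the PBS-primed PB samples, 4 and 2 from LPS-primed PB and 2 from all 4 marrow samples.

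Shares of the complexes within the chain do not depend on the scaling, and those of complexes IV, I and III differed most in LPS-primed PB. Complex IV, cytochrome c oxidase, held 36.9% and 35.3% of chain UMIs in LPS-primed PB, 31.4% and 32.5% in PBS-primed PB, 29.5% and 28.7% in LPS-primed BM and 30.2% and 31.6% in PBS-primed BM. The LPS-primed PB plates of batch 6 were at 33.2% and 34.9%, and the other batch 6 plates at 28.0% to 32.2%, so LPS-primed PB lay above the rest on all 17 plates. The LPS difference in blood was 4.15 percentage points (SD 0.94) in the samples and 2.36 in batch 6. For the sum of complex IV the log2 difference for LPS in blood was 0.06 (SD 0.05) with TMM, where the samples overlapped. On the library scale it was -0.85 (SD 0.06). The sums of complexes I and III were at -0.33 (SD 0.05) and -0.52 (SD 0.10) with TMM and at -1.25 and -1.44 without it. In batch 6 with TMM the sums were at 0.16 for complex IV, 0.01 for I and -0.25 for III. Leaving out Cox8a and the other highest gene of each complex brought the complex IV share to 37.3% and 32.9% in LPS-primed PB and 31.9% and 33.0% in PBS-primed PB, which overlap. The separation was also lost without cells that carry platelet, lymphocyte or erythroid markers, since 1 PBS-primed PB plate of batch 6, where 48 of 88 cells were left out, then stood at 36.1%. With hepatocyte markers counted too, PBS-primed PB was at 35.7% and 35.2% and LPS-primed PB at 36.1% and 31.8% in the samples.

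Complex I, the NADH dehydrogenase, held 29.6% and 27.2% of the chain in LPS-primed PB, 34.3% and 31.7% in PBS-primed PB, 33.5% and 35.8% in LPS-primed BM and 32.1% and 33.5% in PBS-primed BM. The labelled samples of the PB groups did not overlap, but the batch 6 plates did, with 32.1% and 27.8% after LPS and 27.5% and 34.1% after PBS. Complex III, the cytochrome bc1 complex, was at 7.99% and 7.85% in LPS-primed PB against 9.98% and 11.1% in PBS-primed PB, a difference of -2.60 percentage points (SD 0.54), and in batch 6 at 8.05% and 9.38% against 11.1% and 10.3%. So the complex III share was lower after LPS in blood in both batches, while among PBS-primed BM plates it ranged from 7.31% to 11.3%. Complex II was at 3.33% and 4.15% in PBS-primed PB, 3.82% and 4.64% in LPS-primed PB, 3.05% and 3.31% in LPS-primed BM and 2.31% and 3.18% in PBS-primed BM, so all 4 blood samples lay above the 4 marrow samples. The batch 6 plates overlapped, at 2.73% to 5.53% in blood and 1.90% to 3.33% in marrow. Complex V ranged over 20.6% to 24.7% in the samples, and cytochrome c held at most 0.423%.

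**Figure D2:**
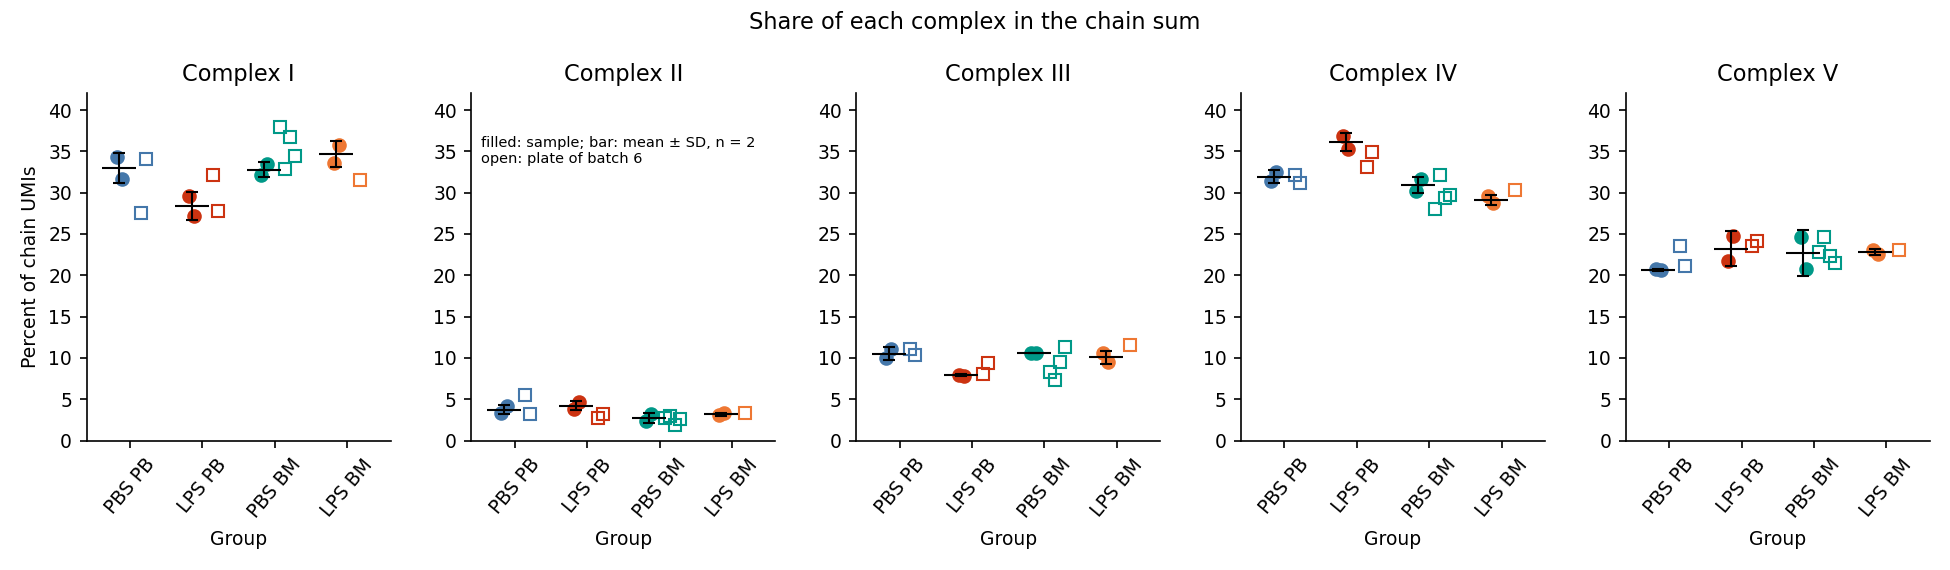
Percent of chain UMIs (vertical axis, from 0) held by complexes I to V in each group. Filled points are samples with mean ± SD (n = 2) and open squares are batch 6 plates, and the 4 LPS-primed PB values of complex IV at 33.2% to 36.9% stand above every other plate.

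Tests of single genes were made over all 8478 genes that passed the low-count filter, 76 of them chain genes, with edgeR's quasi-likelihood test after TMM, calling a gene at a Benjamini-Hochberg adjusted p under 0.05. The 4 not tested were Atp5g2, Atp5s, Cox6b2 and Cox7a1. Atp5sl was tested and is counted among the 76. For PBS-primed PB against PBS-primed BM 0 of 76 chain genes were called (5 had an unadjusted p under 0.05, as had 1569 of all 8478, and DESeq2 also called 0), where 2.61% of all genes tested were called. For LPS-primed PB against LPS-primed BM 1 chain gene was called (background 3.73%), for LPS-primed against PBS-primed PB 1 was called (background 3.94%), and for LPS in marrow 0 (background 0.0708%, 2 with an unadjusted p under 0.05 against 684 of all genes, DESeq2 0). The difference of the LPS effects between blood and marrow called 0 (background 1.5%, 5 with an unadjusted p under 0.05 against 1132 of all genes, DESeq2 1). In each of these comparisons the share of chain genes called was at or below the background. With library size alone 0, 1, 5, 0 and 1 chain genes were called in the same order (background 3.5%, 3.1%, 4.81%, 0.118% and 0.755%), and with the plates of both batches in 1 fit 3, 1, 2, 0 and 0 (background 8.06%, 5.58%, 9.27%, 0.443% and 3.35%).

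Against the median of all genes, chain genes moved little. With TMM their median log2 difference was -0.00 for PBS-primed PB against BM (all genes 0.15), -0.07 for LPS-primed PB against BM (all genes -0.07), -0.24 for LPS in blood (all genes -0.11) and -0.13 for LPS in marrow (all genes 0.00). With library size alone the medians were 0.52 (all genes 0.67), -0.65 (all genes -0.65), -1.14 (all genes -1.02) and 0.06 (all genes 0.19). The change of scale moves all genes of a sample by 1 factor. On the library scale 71 of 76 chain genes were lower after LPS in blood and 56 were higher in PBS-primed PB than BM, and with TMM these counts were 48 and 38. Of all 8478 genes, 6096 were lower after LPS in blood and 5547 higher in PBS-primed PB than BM on the library scale, and 4457 and 4536 with TMM. Without overlap between samples, 55 (72.4%) were lower after LPS in blood on the library scale against a background of 41.5% of all genes tested, and 22 (28.9%) on the TMM scale against a background of 23.6%. For PBS-primed PB against BM, 37 (48.7%) were higher without overlap on the library scale (background 34.6%) and 11 (14.5%) on the TMM scale (background 25.5%), where 17 (22.4%) were lower without overlap (background 20.2%). For LPS-primed PB against BM, 41 (53.9%) were lower without overlap on the library scale (background 37.9%) and 24 (31.6%) on the TMM scale (background 26.3%). Chain genes had a median level of 79.6 CPM against 17.3 for all genes tested, and the part of level in these shares was not tested.

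**Figure D3:**
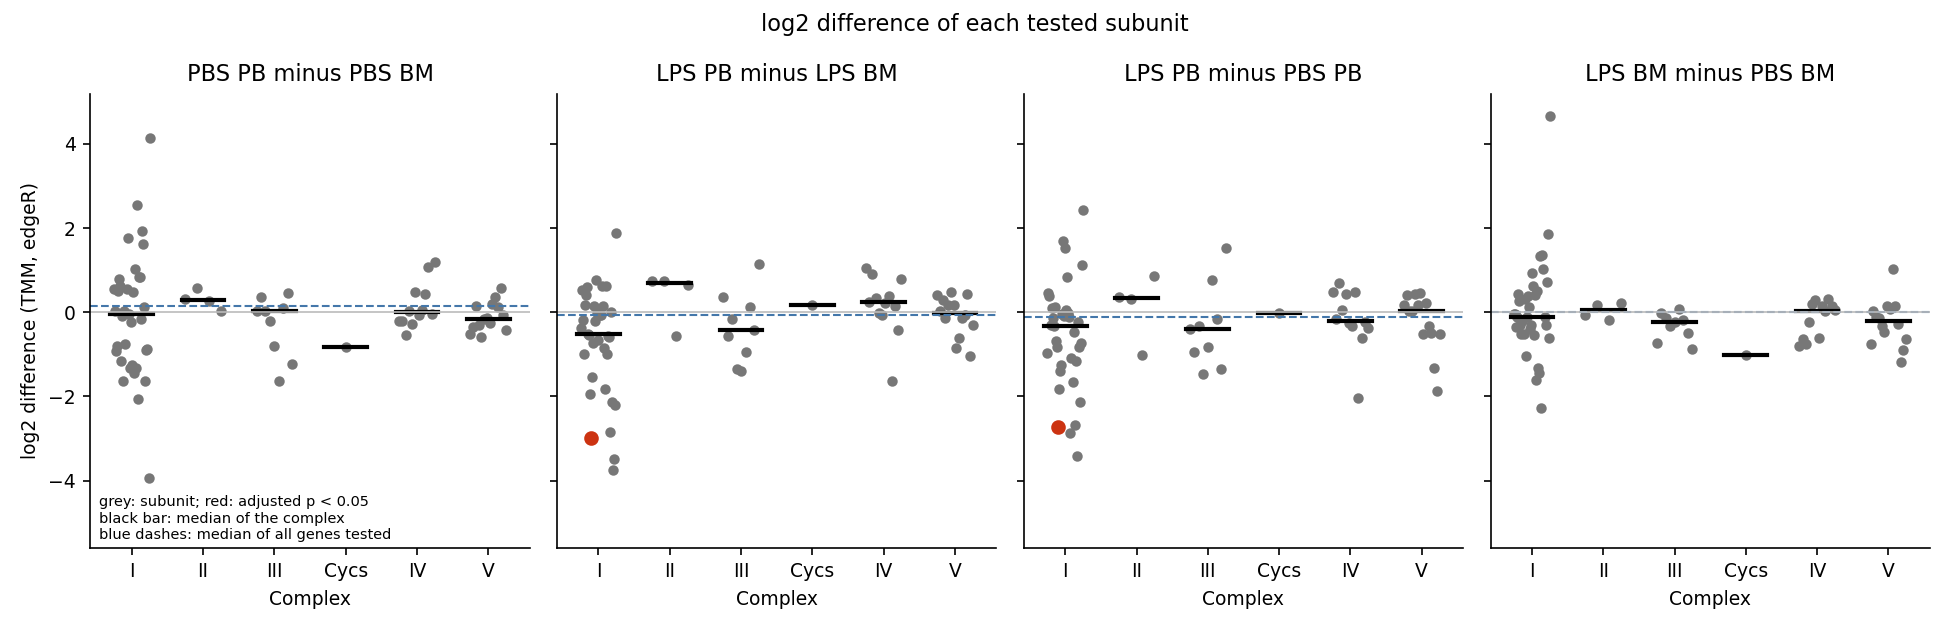
log2 difference (vertical axis, TMM, edgeR) of each tested subunit by complex in the 4 comparisons of groups. Grey points are subunits, red points those at adjusted p under 0.05, black bars the median of each complex and blue dashes the median of all genes tested, and the only red point, in the 2 middle panels, is Ndufb8.

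Complex I is the largest complex of the chain. Ndufb8, an accessory subunit of the membrane arm, was the gene called in both comparisons. As CPM on the library scale it was at 134 and 156 in PBS-primed PB, 7.34 and 15.6 in LPS-primed PB, 156 and 122 in LPS-primed BM and 101 and 95.8 in PBS-primed BM. Both LPS-primed PB samples were below all 6 others. The log2 difference was -2.72 (SE 0.57, edgeR adjusted p = 0.0246) for LPS in blood and -2.99 (SE 0.58, edgeR adjusted p = 0.0141) against LPS-primed BM with TMM, and -3.66 and -3.60 with library size alone.

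Batch 6 did not repeat that difference in both plates. Ndufb8 stood there at 71.5 and 0.215 in the 2 LPS-primed PB plates, 86.3 and 129 in PBS-primed PB, 57.6 in LPS-primed BM and 78.3 to 152 in PBS-primed BM. The first LPS-primed PB plate had 860 UMIs in 56 of 95 cells and the second 2 UMIs in 2 of 91 cells. With the plates of both batches in one fit the log2 difference for LPS in blood was -1.43 (edgeR adjusted p = 0.281). In the samples the counts also rested on few cells, since the 2 highest cells held 20.1% to 63.8% of the Ndufb8 UMIs. When hepatocyte markers were counted among the markers that exclude a cell, which left 12 and 7 cells of PBS-primed PB, Ndufb8 was at 7.16 and 16.4 there and at 5.33 and 8.44 in LPS-primed PB, with a log2 difference of 0.06 (edgeR adjusted p = 1). The call for LPS in blood was lost in each fit without either PBS-primed PB sample (edgeR adjusted p = 0.071 and 0.107), without the first LPS-primed PB sample (0.0851) and without either LPS-primed BM sample (0.0597 and 0.0521). The call against LPS-primed BM was lost without the first LPS-primed PB sample (edgeR adjusted p = 0.0554) and without either LPS-primed BM sample (0.116 and 0.066). It was also lost with the plates of both batches (-1.61, edgeR adjusted p = 0.298) and without cells that carry blood cell or hepatocyte markers (-3.65, 0.18). After thinning each cell to 5000 UMIs neither call held, at -1.41 for LPS in blood (edgeR adjusted p = 0.226) and -1.54 against LPS-primed BM (0.187). In the annotation of the mm9 assembly (GENCODE vM1) 2 overlapping gene models on the minus strand carry the symbol, at chr19:44618212-44627321 and chr19:44623062-44629930, and how reads in their overlap were assigned is not given in the sources used here.

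Ndufa8, an accessory subunit that is imported into the intermembrane space, was low in LPS-primed PB in both batches and is named after its values were seen. It lies at chr2:35891846-35904926 on the minus strand of mm9. On the library scale it was at 131 and 96.6 in PBS-primed PB, 18.9 and 15.5 in LPS-primed PB, 70.7 and 77.2 in LPS-primed BM and 159 and 109 in PBS-primed BM. The LPS-primed PB plates of batch 6 were at 0.915 and 26.5, below the other 7 plates at 62.3 to 151. The log2 difference for LPS in blood was -1.82 (SE 0.54, edgeR adjusted p = 0.102) with TMM, -2.73 (edgeR adjusted p = 0.0176) with library size alone and -1.95 (edgeR adjusted p = 0.0297) with TMM over the plates of both batches. It passed the threshold in the last 2 fits, where 4.81% and 9.27% of all genes were called, and with DESeq2 (-1.90, adjusted p = 0.0123). It was not called after thinning, with the replicate block or without marked cells. The 2 highest cells held 50.2% and 54.6% of the Ndufa8 UMIs in PBS-primed PB and 64.5% and 63.7% in LPS-primed PB.

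The 3 complex I genes with the highest mean level were Ndufa13, Ndufa3 and Ndufa1, all accessory subunits. Ndufa13, also known as GRIM-19, was at 429 and 306 TMM-scaled CPM in PBS-primed PB, 220 and 158 in LPS-primed PB, 227 and 267 in LPS-primed BM and 173 and 333 in PBS-primed BM, with an edgeR adjusted p of 0.25 for LPS in blood and of 0.022 with library size alone. Ndufa3 ranged over 149 to 350 and Ndufa1 over 121 to 352 with no pair of groups called. Among core subunits of the electron path, none of Ndufs1, Ndufs3, Ndufs7, Ndufs8, Ndufv1 and Ndufv2 was called by edgeR with TMM, with an unadjusted p under 0.05 for Ndufs7 and Ndufs8 in PBS-primed PB against BM and for Ndufs8 after LPS in blood. Ndufs8 stood at 55.8 and 132 TMM-scaled CPM in PBS-primed PB and 3.43 to 25.3 in the other 6 samples. The 2 highest cells held 65.7% and 54.1% of its UMIs in PBS-primed PB, and 81.1% and 50% in LPS-primed PB. For LPS in blood its log2 difference was -2.87 (edgeR adjusted p = 0.222), and -4.55 (edgeR adjusted p = 0.0195) with the plates of both batches and -2.997 (adjusted p = 0.0223) with DESeq2. Ndufs7 was at 96.1 and 146 in PBS-primed PB and 21.8 to 67.1 elsewhere. In the LPS-primed PB samples the 2 highest cells held 96.45% and 95.99% of its UMIs. Both genes had PBS-primed PB above the other groups without overlap on this scale. Of the accessory subunits named after their values were seen, Ndufv3 was at 50.4 and 67.6 in PBS-primed PB, 3.13 and 64.1 in LPS-primed PB, 114 and 142 in LPS-primed BM and 204 and 162 in PBS-primed BM, so all 4 blood samples lay below all 4 marrow samples. Ndufb7 and Ndufb11, both of the membrane arm, likewise had PBS-primed PB below PBS-primed BM, with 160 and 162 against 289 and 269 for Ndufb7 and 108 and 72.3 against 154 and 248 for Ndufb11. For PBS-primed PB against BM, Ndufv3, Ndufb7 and Ndufb11 had log2 differences of -1.63, -0.79 and -1.16 (edgeR adjusted p = 0.381, 0.278 and 0.263), and of -1.69, -1.03 and -1.67 with the plates of both batches (edgeR adjusted p = 0.033, 0.0408 and 0.0156). Without the second LPS-primed PB sample Ndufv3 was called for LPS in blood at -4.25 (edgeR adjusted p = 0.00384). As a complex, 25 of 35 subunits were lower after LPS in blood with TMM, at a median of -0.32 (all genes -0.11), and 31 of 35 on the library scale, at -1.24 (all genes -1.02).

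Complex II, succinate dehydrogenase, also works in the citric acid cycle and had 4 tested genes, none called in any comparison. Sdhb, the iron-sulfur subunit, ranged over 62.4 to 171 TMM-scaled CPM, and Sdhd, a membrane anchor, over 62.1 to 168. Sdha, the flavoprotein, was at 77.4 and 131 in PBS-primed PB and 28.0 and 74.7 in LPS-primed PB. Sdhc, the other anchor, was low at 5.39 to 45.0. All 4 had a positive log2 difference for PBS-primed PB against BM, with a median of 0.29 (all genes 0.15), and with TMM the complex sum overlapped between these groups.

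None of the complex III genes was called. With TMM 7 of 9 genes were lower after LPS in blood, at a median of -0.39, where 52.6% of all genes were lower at a median of -0.11. Uqcrh, the hinge protein, had the highest mean level at 113 to 340 TMM-scaled CPM. Uqcrq, a small membrane subunit, was at 142 and 278 in PBS-primed PB and 91.5 and 126 in LPS-primed PB, with an edgeR adjusted p of 0.305 with TMM and 0.0351 with library size alone. Uqcr10, a small subunit of the same complex, ranged over 96.4 to 210. Of the catalytic and core subunits, Uqcrfs1, the Rieske iron-sulfur protein, was at 19.1 and 28.5 in PBS-primed PB, 42.4 and 38.9 in LPS-primed PB, 70.5 and 85.6 in LPS-primed BM and 61.7 and 87.0 in PBS-primed BM. Its 4 marrow samples lay above its 4 blood samples, with a log2 difference of -1.64 (edgeR adjusted p = 0.222) for PBS-primed PB against BM. Cyc1, the cytochrome c1 subunit, ranged over 6.03 to 53.1, Uqcrc1 over 22.8 to 80.8 and Uqcrc2 over 25.3 to 58.0. Cycs, cytochrome c itself, was at 22.8 and 3.14 in PBS-primed PB, 4.39 and 21.3 in LPS-primed PB and 4.17 and 41.8 in PBS-primed BM, so the samples of these groups overlapped widely.

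Cox8a, the smallest subunit, lies at chr19:7289648-7292106 on the minus strand of mm9 and has 1 near-identical copy in that genome, so its reads could be split. On the library scale it was at 534 and 601 in PBS-primed PB, 352 and 480 in LPS-primed PB, 307 and 298 in LPS-primed BM and 484 and 437 in PBS-primed BM. The LPS-primed PB samples were above the LPS-primed BM samples on both scales. In batch 6 the LPS-primed PB plates, at 353 and 214, lay on either side of the LPS-primed BM plate at 227. The log2 difference was 1.05 (SE 0.28, edgeR adjusted p = 0.073) with TMM and 0.46 (edgeR adjusted p = 0.355) with library size alone, and with the plates of both batches it was 1.01 (edgeR adjusted p = 0.036, background 5.58%). DESeq2 called it as well, with an adjusted p of 0.0122.

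Cox4i1, a regulatory subunit, was at 481 and 376 TMM-scaled CPM in PBS-primed PB, 447 and 322 in LPS-primed PB, 297 and 351 in LPS-primed BM and 483 and 516 in PBS-primed BM, and was not called. Cox6a1, another regulatory subunit, was at 305 and 241 in PBS-primed PB and 388 and 495 in LPS-primed PB, with a log2 difference for LPS in blood of 0.69 (edgeR adjusted p = 0.382) with TMM and -0.23 with library size alone. Cox5a (chr9:57369039-57380231, plus strand of mm9), a subunit on the matrix side, went the other way and is named after its values were seen. On the library scale it was at 299 and 261 in PBS-primed PB, 16.7 and 53.9 in LPS-primed PB, 116 and 217 in LPS-primed BM and 95.2 and 191 in PBS-primed BM. In the LPS-primed PB samples the 2 highest cells held 42.1% and 83.0% of its UMIs. The LPS-primed PB plates of batch 6, at 67.4 and 54.9, lay below the other plates at 71.9 to 238. Its log2 difference for LPS in blood was -2.05 (SE 0.63, edgeR adjusted p = 0.117) with TMM and -2.99 (edgeR adjusted p = 0.0217) with library size alone, and -1.20 (edgeR adjusted p = 0.105) with the plates of both batches. DESeq2 called it (-2.11, adjusted p = 0.0101), as did edgeR without the second LPS-primed PB sample (-3.23, adjusted p = 0.0141). Within complex IV, then, Cox8a and Cox5a had opposite signs with TMM in LPS-primed PB against LPS-primed BM, at 1.05 and -1.64 (edgeR adjusted p = 0.073 and 0.215).

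**Figure D4:**
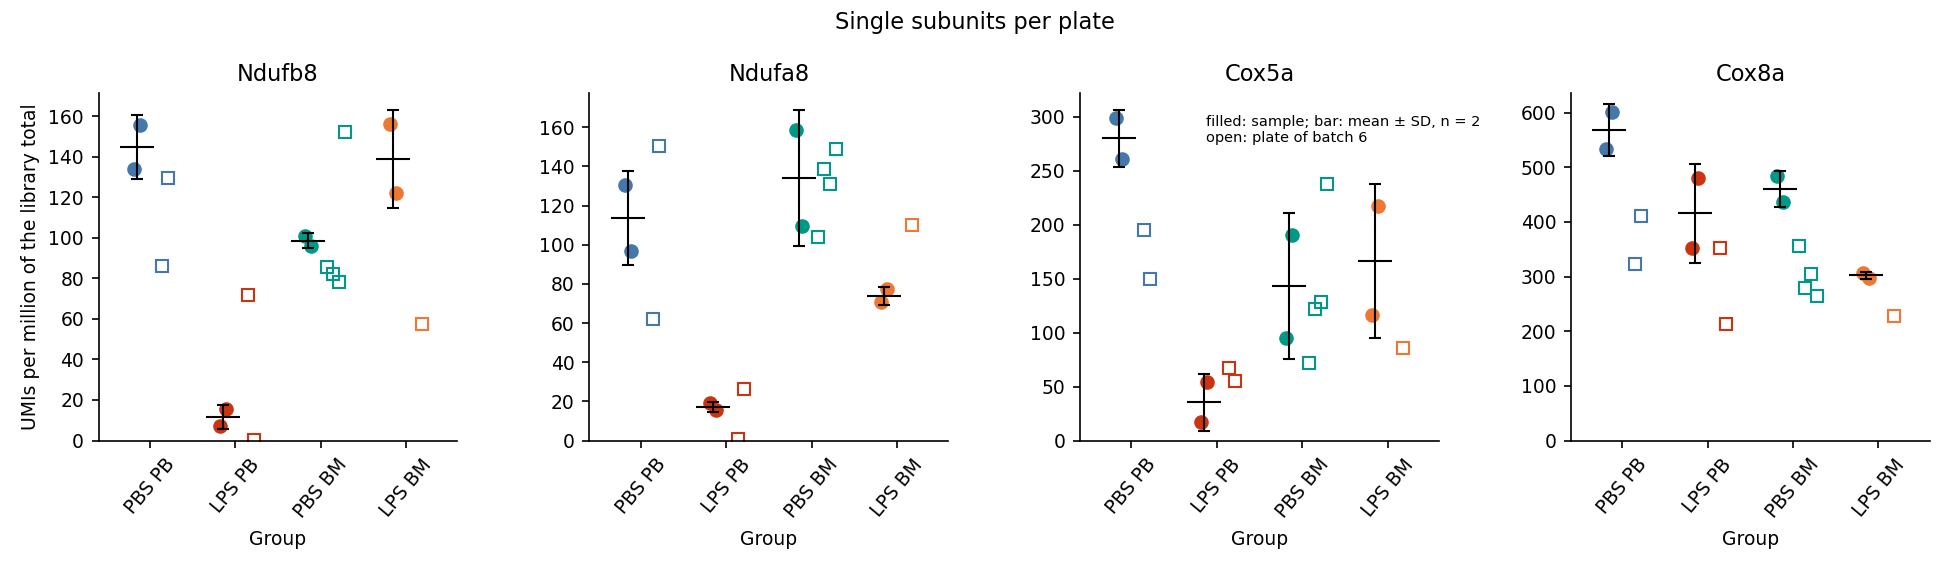
CPM on the library scale (vertical axis, from 0) of Ndufb8, Ndufa8, Cox5a and Cox8a in each group. Filled points are samples with mean ± SD (n = 2) and open squares batch 6 plates, and 1 of the 2 LPS-primed PB plates of batch 6 has Ndufb8 at 71.5, near the other groups.

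Of the complex V genes, Atp5e, the epsilon subunit of the rotor, had the highest mean level at 210 to 473 TMM-scaled CPM, followed by Atp5f1, in the stalk, at 189 to 365 and Atp5j at 221 to 335. Of the catalytic core, Atp5b (beta) ranged over 111 to 199 and Atp5a1 (alpha) over 38.4 to 136. None of the 14 tested genes was called, and with TMM 6 were lower and 8 higher after LPS in blood, at a median of 0.03 (all genes -0.11). On the library scale all 14 were lower after LPS in blood, at a median of -0.89 (all genes -1.02), and all 14 were lower in LPS-primed PB than BM. Of all genes tested, 71.9% and 65.8% were lower in these comparisons.

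Paralogues that stand for tissue forms of a subunit had low counts. In batch 6 Cox6b2 reached 73 UMIs and 5.31% of its pair on 1 PBS-primed BM plate. Cox7a1 reached 41 UMIs and 3.01% of its pair there on 1 LPS-primed PB plate. Cox6b2, known from testis, had 76 UMIs over the 8 samples, most of them in 1 LPS-primed BM sample, where it held 3.09% of the Cox6b pair, and Cox7a1, known from heart and muscle, had 29 and at most 1.07% of its pair with Cox7a2 in these samples. Of the 3 genes for the ATP synthase c subunit, which encode the same mature protein, Atp5g3 held 53.8% to 93.1% and Atp5g1 6.45% to 45.5% in the PB samples. Atp5g2 had 7 UMIs in the 8 samples and 29 on 1 PBS-primed BM plate of batch 6, and has 3 near-identical copies in the genome. By group, Atp5g3 was at 53.8% and 59.2% in LPS-primed PB, below PBS-primed PB at 68.5% and 93.1% and LPS-primed BM at 69.1% and 68.0%, while the PBS-primed BM samples spanned 43.0% to 85.3%. In batch 6 the LPS-primed PB plates were at 96.8% and 50.5%, and the PBS-primed PB plates at 82.2% and 40.7%. Cox4i2, Cox6a2 and Ndufa4l2 were not analysed here. Of the 80 genes, 20 had a copy of at least 95% identity over 80% or more of the last 300 transcript bases, with a maximum of 10 for Atp5l, and reads of such genes may be lost or shared.

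Other mitochondrial gene lists give the setting. With TMM the 64 tested genes of the mitochondrial ribosome had a median log2 difference of -1.46 for LPS in blood and of -1.03 for LPS-primed PB against BM, the 21 genes of protein import -1.18 and -0.75, and the 17 genes of the tricarboxylic acid cycle and pyruvate dehydrogenase -1.36 and -1.21, and 0 genes of these lists were called by edgeR with TMM. At an unadjusted p under 0.05, LPS in blood had 7 of the 64, 1 of the 21 and 2 of the 17, a smaller share than the 1421 of all 8478 genes. With library size alone 1 gene of each list was called as lower after LPS in blood, and with the plates of both batches 3 ribosome genes and 1 of the tricarboxylic acid list were lower and 1 ribosome gene higher. The 76 chain genes stood at -0.24 and -0.07 on the same scale. With the plates of both batches the medians were -0.86 and -0.61 for protein import and -1.37 and -1.005 for the tricarboxylic acid list. Those of the chain genes were then -0.20 and -0.18. The part of expression level in these medians was not tested. Mrpl33, of the large ribosomal subunit, and Mrps18c, of the small one, were the most abundant ribosome genes, with log2 differences for LPS in blood of 0.06 and 0.57. In protein import these were Timm10b, a small inner membrane chaperone, at 0.03, and Tomm22, an outer membrane receptor, at -0.50. Mdh2, malate dehydrogenase, was at -1.36 (edgeR adjusted p = 0.077) and Cs, citrate synthase, at -1.11 (edgeR adjusted p = 0.468). The 26 tested assembly factors, which build the complexes, had medians of -0.05 for LPS in blood and -0.47 for LPS-primed PB against BM, and 0 were called, led in level by Cox17 (0.54) and Cox14 (-0.33).

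**Figure D5:**
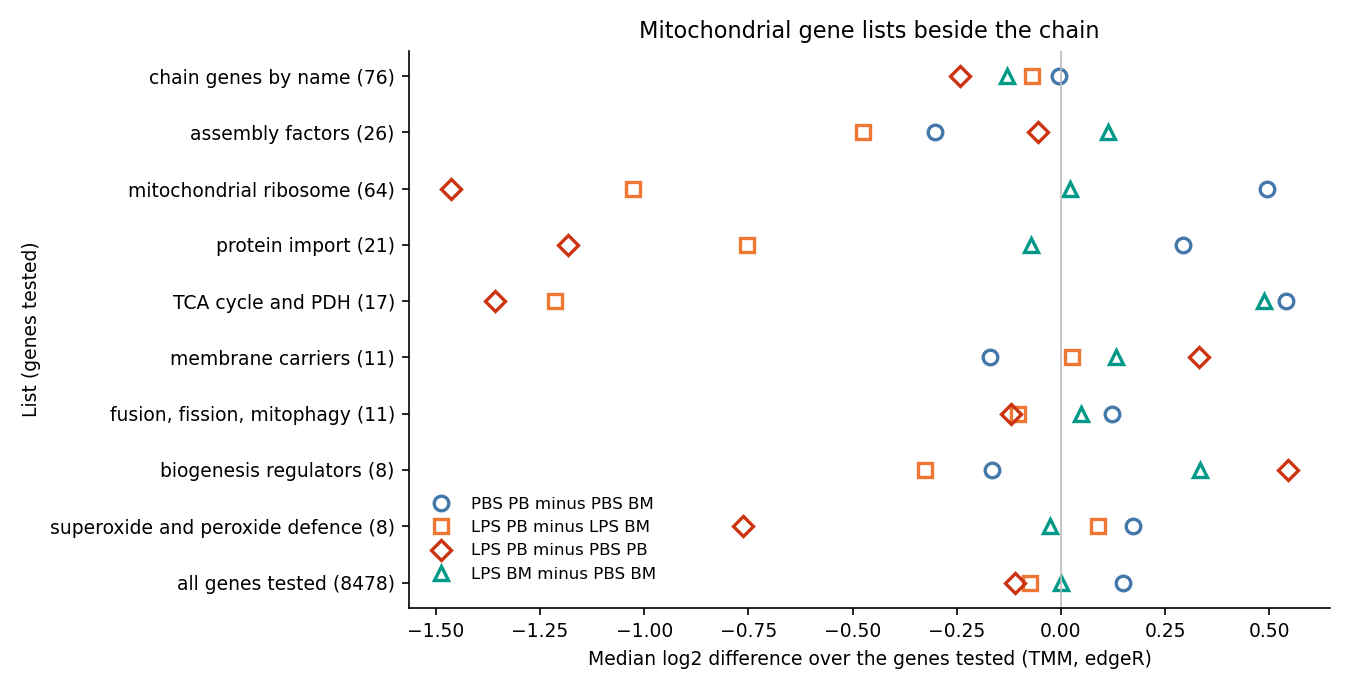
Median log2 difference (horizontal axis, TMM, edgeR) of each list of mitochondrial genes, with the number tested in brackets, in the 4 comparisons of groups. For LPS-primed against PBS-primed PB (diamonds) the ribosome, import and tricarboxylic acid lists lie at -1.46, -1.18 and -1.36 and the chain genes at -0.24, beside -0.11 for all genes.

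With TMM on the 8 samples, genes of 2 other lists were called. Among the 11 carriers Mpc2, a subunit of the mitochondrial pyruvate carrier, was at 142 and 62.3 CPM on the library scale in PBS-primed PB and 288 and 384 in PBS-primed BM, a log2 difference of -2.23 (edgeR adjusted p = 0.0206) with TMM. It also passed with the plates of both batches (-2.37, edgeR adjusted p = 1.9e-05), after thinning (-2.63, edgeR adjusted p = 0.00037) and with DESeq2 (-2.20, adjusted p = 4.0e-05). It did not pass without cells that carry platelet, lymphocyte or erythroid markers (log2 difference -1.86, edgeR adjusted p = 0.0884), with library size alone (-1.71, 0.0508), or without the second sample of either group (-1.74, 0.129 and -1.98, 0.0893), and with hepatocyte markers also counted the log2 difference was -1.01 (0.539). Among the 8 genes of superoxide and peroxide defence Sod2, the manganese superoxide dismutase of the matrix, was at 20.2 and 49.1 in PBS-primed PB, 1013 and 1133 in LPS-primed PB, 9.02 and 33.2 in LPS-primed BM and 1.43 and 20.9 in PBS-primed BM. It was higher in LPS-primed PB than in PBS-primed PB by 5.88 on the log2 scale (edgeR adjusted p = 0.011) and than in LPS-primed BM by 6.24 (edgeR adjusted p = 0.00854). With the plates of both batches the values were 5.80 (edgeR adjusted p = 1.5e-05) and 6.56 (edgeR adjusted p = 6.2e-05). Prdx5, a peroxiredoxin found in mitochondria and elsewhere, was at 1186 and 1131 in PBS-primed PB, 2539 and 2610 in LPS-primed PB, 1963 and 1977 in LPS-primed BM and 2006 and 2210 in PBS-primed BM. It was lower in PBS-primed PB than BM by a log2 difference of -1.38 (edgeR adjusted p = 0.00186), which fell to -0.76 (0.223) without cells that carry blood cell or hepatocyte markers, and higher after LPS in blood by 2.07 (edgeR adjusted p = 8.3e-05). With the plates of both batches Prdx5 was higher in LPS-primed PB than in LPS-primed BM by 1.20 (edgeR adjusted p = 0.00237). Against LPS-primed BM it was higher by 0.97 (edgeR adjusted p = 0.00991) with TMM and by 0.39 (edgeR adjusted p = 0.234) with library size alone, and the call was also lost after thinning (0.55, 0.114) and without either LPS-primed BM sample (0.95, 0.116 and 0.995, 0.101). Without 1 of the PBS-primed PB samples Sod2 was not called for LPS in blood, at log2 differences of 5.31 and 6.60 (edgeR adjusted p = 0.154 and 0.108). Without the first LPS-primed BM sample it was not called against LPS-primed BM, at 5.58 (edgeR adjusted p = 0.0683). The 8 biogenesis regulators (Yy1 and Gabpa the most abundant) and the 11 genes of fusion, fission and mitophagy (Fis1 and Bnip3l) had 0 genes called by edgeR with TMM on the 8 samples, with 1 and 2 at an unadjusted p under 0.05 for LPS in blood.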

How the data were processed

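SCRB-seq UMI counts of 1421 neutrophils were used as deposited. According to the methods and processing notes, the authors trimmed reads with cutadapt 1.15, aligned them to mm9 with STAR 2.6.0a, removed UMI duplicates and made the counts per gene and cell with HTSeq 0.11.2, after filtering cells. The gene annotation is not given in the sources used here. 3′ counts rest on transcript ends, so near-identical copies can lose reads.

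UMI counts were summed per sample and plate. Genes seen in at least 10 cells entered edgeR 4.0.16 (R 4.3.3), with filterByExpr, TMM and quasi-likelihood tests over all 8 samples in 1 model with 4 group means, and Benjamini-Hochberg adjustment at 0.05. The common dispersion was 1.06, and 8478 genes were tested. The steps were tested on simulated data. Sums per complex and shares carry no test. DESeq2 1.42.0, other scalings, no filter, thinning of each cell to 5000 UMIs, each sample left out, a replicate block and the plates of both batches were alternatives. Batch 6 has group names but no samples, and its plates are not labelled replicates. All 95 cell numbers recur across plates, and 0 cells had identical counts. Copies were searched with minimap2 2.31-r1302 in mm9. Library totals, given in the report, set the counting precision.

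Genes named were every chain gene called in a comparison, the 3 with the highest mean level per complex, the paralogues, the core subunits and, in other lists, up to 4 called genes or else the 2 most abundant. One gene under this rule is not reported here. The members and lists were chosen with earlier results of these data known. Authors' annotation of cells was not used.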

Additional observations from a re-analysis of the deposited data

Results flagged for a closer look

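LPS went with opposite directions in blood and marrow for the shares of complexes I and IV within the chain in the labelled samples. The share of complex I was lower after LPS in PB by -4.59 percentage points and higher in BM by 1.87, a difference of -6.456 points, and the share of complex IV was higher in PB by 4.15 and lower in BM by -1.79, a difference of 5.934 points. Neither difference was tested. Without the highest gene of each complex the values were -2.83 in PB and 0.22 in BM for complex I, and 2.64 and -1.24 for complex IV. In batch 6 the marrow values had the other sign, at -3.92 points for complex I and 0.35 for complex IV.

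The LPS effect on Prdx5 differed between the tissues by 2.352 on the log2 scale with TMM (edgeR adjusted p = 0.0006). With library size alone the difference was 1.24 (edgeR adjusted p = 0.0387). Values were higher after LPS in both PB samples, and in BM they were 1963 and 1977 against 2006 and 2210 CPM on the library scale.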

How the results depend on the processing

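With TMM on the labelled samples, genes called numbered 221 for PBS-primed PB against BM, 316 for LPS-primed PB against BM, 334 for LPS in blood, 6 for LPS in marrow and 127 for the difference of the LPS effects, and chain genes called 0, 1, 1, 0 and 0. In the same order, DESeq2 called 962, 951, 1057, 196 and 500 genes and 0, 2, 4, 0 and 1 chain genes, and the plates of both batches gave 709, 491, 816, 39 and 295 genes and 3, 1, 2, 0 and 0 chain genes. Library size alone gave 5 chain genes for LPS in blood and 1 for the difference, with 10 genes for LPS in marrow and 64 for the difference. LPS in marrow had 15 genes without the low-count filter and 50 after thinning, which left 0 chain genes called. Without cells that carry blood cell or hepatocyte markers, chosen after seeing the data, the genes called were 97, 121, 1 for LPS in marrow and 68 for the difference, chain genes called were 0, and Ndufb8 for LPS in blood turned from -2.72 to 0.058; 12 and 7 PBS-primed PB cells were left there.

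The chain sum had log2 differences of 0.45, -0.55, -1.03, -0.03 and -1.004 with library size alone. As a mean over cells with TMM it had 0.028, 0.23, -0.030 for LPS in blood and 0.20 for the difference. In batch 6 with TMM over all plates it had -0.34 for PBS-primed PB against BM, 0.059 for LPS in blood and 0.29 for the difference. For LPS in blood it was -0.20 with DESeq2 size factors and -0.22 after thinning. Leaving out 1 sample at a time, where the lone sample of a group is assumed to vary like the others, gave 108 to 342, 144 to 382, 146 to 400, 2 to 28 and 80 to 168 genes, 0 chain genes for PBS-primed PB against BM and for LPS in marrow, 0 to 3 for each comparison with LPS-primed PB and 0 to 2 for the difference, and chain sums of -0.16 to 0.032, -0.036 to 0.10, -0.20 to -0.095, -0.31 to -0.12 and 0.0063 to 0.20.

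Samples with the same replicate number did not deviate together over all genes (r = -0.027 to 0.005). That cannot exclude a pairing, because the summed counts vary widely between samples of a group (common dispersion 1.06). With the replicate block 255, 353, 374, 13 and 154 genes and 0, 1, 2, 0 and 0 chain genes were called, with Cox5a the added gene for LPS in blood. In each comparison more genes were called with the block than without it.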
